A study of Mus musculus with 6 samples.

Results

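The genes described here encode enzymes and other proteins that serve the removal of reactive oxygen, and include the regulator genes Nfe2l2 and Keap1. They are 35 antioxidant and thioredoxin system genes, chosen by gene name, among 27343 gene names on the array, of which 18975 were tested. Testis RNA came from 3 male mice labelled as lacking Prss37 (Prss37-/-) and 3 wild-type males. The titles of the knockout samples name Prss37 and set the groups, but the description of the same samples names Prss55. All mice had a C57BL/6 background and were 6 to 8 weeks old, and 1 single-colour Agilent array was hybridised per mouse. The labels do not say how the Prss37 allele was made, which part of the gene it lacks or whether the wild-type mice were littermates. Prss37 encodes a trypsin-family protein made in the testis.

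Superoxide dismutases turn superoxide into hydrogen peroxide, which catalase, the glutathione peroxidases and the peroxiredoxins then reduce. Glutathione and thioredoxin supply the electrons for the peroxidases and are themselves kept reduced by glutathione reductase and the thioredoxin reductases at the expense of NADPH. The transcription factor Nrf2 (gene Nfe2l2), held back by Keap1, raises many of these genes under oxidative stress. Spermatids make thioredoxins of their own, Txndc2, Nme8 and Txndc8, which locate to the developing tail or acrosome, and they use Gpx4 both as an enzyme and as a structural protein of the sperm midpiece.

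The members were read by 52 probes of 60 bases, 1 probe for 24 of the genes and several for 11. A level is given as the processed spot signal scaled so that every array had the same 75th percentile, 1617, and differences are log2 values, knockout minus wild type. A probe was tested if it was well above background on every array of at least 1 genotype, which held for 47 of the 52 probes and 34 of the 35 genes. The brightest tested probe stood for a gene, and a gene was called at an adjusted p under 0.05 in limma, adjusted by Benjamini-Hochberg across every gene that was tested. Probes are shown by their first 30 bases unless other positions are given. The probes on which the clearest differences rest, and that of the most variable member, begin as follows, 5′ to 3′:
Cat: agggcttagcaatcatttaacagaaacatg
Gpx2: gggctctaagtctggggtaggttctgggcc
Gpx6: caatctacagagatcctaatctatcattca
Gpx3: ttttttcagctttctgttccaaatgagccc
On mm9 the Cat probe lies at chr2:103294660-103294719 on the minus strand, the Gpx2 probe at chr12:77893402-77893461 on the minus strand, the Gpx6 probe at chr13:21411049-21411108 on the plus strand and the Gpx3 probe at chr11:54723436-54723495 on the plus strand. The files give the position of a probe in its transcript but no exon or UTR label.

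On each array 69.2% to 71.4% of spots other than controls were well above background, and none was saturated. Slide 1 held replicates 1 and 2 of both genotypes and slide 2 held replicate 3 of both, so differences could also be taken within slides, as the plot of slides shows for the members. The Prss37 probe itself had scaled signals of 67590, 73820 and 71560 in knockout testes, against 116100, 107900 and 124400 in wild-type testes, a log2 difference of -0.71 (limma adjusted p = 0.024). Leaving out wild-type replicate 1 or any 1 knockout replicate gave it an adjusted p of 0.072 to 0.13, with differences of -0.74 to -0.67. It was thus lower but still well detected under the knockout label, and whether the probe lies in the deleted stretch is not given. All 8 spermatid markers, among them the protamine genes Prm1 and Prm2, were bright enough to be tested, as were 4 of 8 epididymal genes, but not Lcn5, Lcn8, Crisp1 and Adam7. In whole testes a lower signal can come from fewer cells of a type or from less RNA per cell, which cannot be told apart here.

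Of the 34 tested members, 1 was called higher and 1 lower in knockout testes. Of all genes tested, 2.46% were called, 1.21% higher and 1.25% lower. The members called were Cat, the gene of catalase, and Gpx2, a glutathione peroxidase best known from the gut lining. The remaining 32 missed the threshold. The median log2 difference of the 34 was 0.02, against -0.002 over all genes tested, with 20 members above 0 and 14 below. Without regard to sign the median size was 0.08, against 0.09 over all genes, and 22 members lay within 0.1 of 0. Sizes over 0.2 occurred in 4 members (11.8%) and in 20.8% of all genes. Knockout and wild-type arrays did not overlap in 10 members (29.4%), 7 higher and 3 lower, where 31.6% of all genes did not overlap, 15.5% higher and 16.0% lower. An unadjusted p under 0.05 was reached by 6 members (17.6%) and by 23.9% of all genes. Taken by direction, 20.6% of the members lay above without overlap and 8.82% below.

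**Figure D1:**
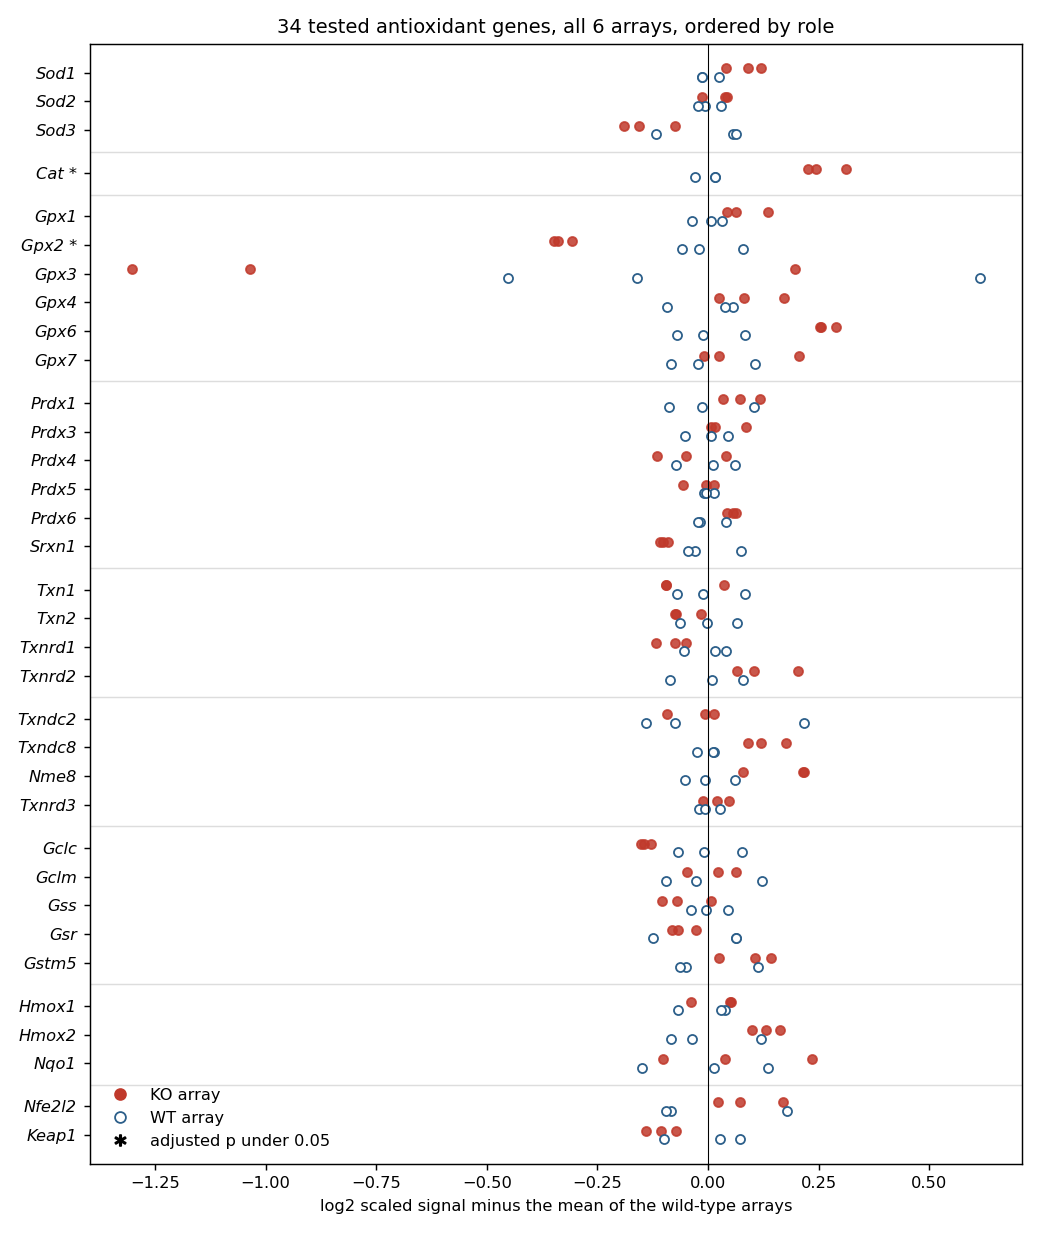
Each row is 1 of the 34 tested members, grouped by role, with the log2 scaled signal of the 3 knockout arrays (filled) and the 3 wild-type arrays (open) relative to the wild-type mean. The mean differences of 22 genes lie within 0.1 of 0, and Gpx3 spreads far more widely than any other member. The genotypes separate in 10 members (29.4%), among them the called Cat and Gpx2 (asterisks), and in 31.6% of all genes.

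Catalase breaks hydrogen peroxide down to water and oxygen, chiefly in peroxisomes. Cat had scaled signals of 505.8, 482.2 and 476.3 in knockout testes, against 399.0, 411.5 and 411.6 in wild-type testes. All 3 knockout arrays lay above all 3 wild-type arrays. The mean was 488 ± 15.6 in knockout and 407 ± 7.23 in wild type (SD, n = 3 each), 1.20-fold higher (log2 difference 0.26, 95% interval 0.16 to 0.36, limma adjusted p = 0.046). Within slide 1 Cat differed by 0.29 and within slide 2 by 0.21. A fit with slide as a block gave Cat an adjusted p of 0.070. Leaving out any single array also took the adjusted p past the threshold, to between 0.055 and 0.16, with differences of 0.23 to 0.28. Catalase is abundant in macrophages and red cells, so their markers are given beside it. Of 10 macrophage markers 8 were above 0 with a median of 0.15 and none was called. Of the 3 tested erythroid genes the heme synthesis gene Alas2 was called higher (0.53, adjusted p = 0.039, and 0.062 blocked on slide), while the globin gene Hba-a1 had -0.25 and the anion exchanger gene Slc4a1 -0.23. The summed level of the macrophage markers, as log2 relative to the array's 75th percentile, was 3.59 to 3.94 in knockout and 3.27 to 3.64 in wild-type testes, and that of the erythroid genes was 2.34 to 2.52 and 2.02 to 2.75. Their part in the Cat result was not tested.

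The glutathione peroxidases reduce peroxides with glutathione, and their 6 tested genes differed most among themselves. Gpx2 had scaled signals of 303.2, 305.2 and 311.8 in knockout testes, against 407.7, 380.6 and 370.2 in wild-type testes. The genotypes did not overlap, and the knockout values lay closer together than the wild-type ones. The mean was 307 ± 4.50 in knockout and 386 ± 19.4 in wild type (SD, n = 3 each), 1.26-fold lower (log2 difference -0.33, 95% interval -0.45 to -0.21, limma adjusted p = 0.042). Within slide 1 Gpx2 differed by -0.37 and within slide 2 by -0.25, and blocking on slide gave an adjusted p of 0.063. Its adjusted p was 0.13, 0.15 and 0.15 without knockout replicates 1, 2 and 3, and 0.11, 0.0497 and 0.046 without wild-type replicates 1, 2 and 3. With normexp background correction the differences of Gpx2 and Cat were -0.24 and 0.22, with adjusted p of 0.074 and 0.095.

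Gpx6, named for olfactory tissue, was the third member with a difference over 0.2 in which the genotypes stood apart. It had scaled signals of 2430, 2427 and 2490 in knockout testes, against 1940, 2158 and 2020 in wild-type testes, without overlap. The log2 difference was 0.27 (95% interval 0.14 to 0.39) and missed the threshold at a limma adjusted p of 0.057. It was 0.25 on slide 1 and 0.30 on slide 2. Without wild-type replicate 2 the adjusted p of Gpx6 was 0.042, and it was 0.038 when arrays were weighted and 0.025 when a variance trend was fitted robustly. Across all 20 alternative fits this adjusted p ran from 0.025 to 0.22. Gpx6 missed the threshold with normexp, in the fit blocked on slide and on slide 1 alone.

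Gpx3, the secreted peroxidase of plasma, had the widest spread of all members. Its scaled signals were 574.5, 244.6 and 203.2 in knockout testes, against 448.1, 366.0 and 767.3 in wild-type testes. The genotypes overlapped, since knockout replicate 1 lay above wild-type replicates 1 and 2. The fitted difference of -0.71 had a 95% interval from -1.83 to 0.41 (limma adjusted p = 0.40), and the within-group SD of 0.69 on the log2 scale compared with a median of 0.06 over the members. Gpx3 differed by -0.11 on slide 1 and by -1.92 on slide 2, and its value ran from -1.17 without knockout replicate 1 to -0.41 without wild-type replicate 3. Markers of interstitial and fat cells are given beside it. The 6 tested Leydig markers had a median difference of -0.01, with none called, and a summed level of 5.01 to 5.17 in knockout and 4.96 to 5.20 in wild-type testes. The 6 tested adipocyte genes had a median of -0.26, with 2 above 0 and 4 below. Among them the lipid droplet gene Cidea was called lower (-0.42, limma adjusted p = 0.041, and 0.062 blocked on slide), whereas the adiponectin gene Adipoq had 0.28 without overlap and Cidec 0.04. Their summed level was 2.61 to 2.64 in knockout and 2.67 to 2.88 in wild-type testes. Within the genotypes, Gpx3 was highest on knockout replicate 1 and wild-type replicate 3. These arrays had the highest Leydig sums of their genotypes, 5.17 and 5.20, but the lowest adipocyte sums, 2.61 and 2.67. Wild-type replicate 1, with less Gpx3 signal than wild-type replicate 3, also had a Leydig sum of 5.17. The part of interstitial and fat cells in the Gpx3 values was not tested.

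Gpx4, the peroxidase of membrane lipids needed for sperm midpiece structure, had scaled signals of 219900, 243600 and 228700 in knockout testes, against 224800, 202800 and 222100 in wild-type testes. These overlapped, and the interval of the log2 difference was -0.06 to 0.24. Gpx1, the peroxidase of the cytosol, had 10390, 10910 and 10240 in knockout testes, against 10150, 9685 and 9987 in wild-type testes, without overlap but with a difference of only 0.08 (limma adjusted p = 0.33). Gpx7, of the endoplasmic reticulum, averaged 346 ± 28.3 in knockout and 329 ± 22.1 in wild-type testes (SD, n = 3 each, as for all means below), and its difference of 0.07 had opposite signs on the 2 slides (0.17 and -0.12). Gpx5, secreted by the epididymis, was the member that could not be tested: its probe read 7.74, 8.21 and 10.2 in knockout testes, against 8.90, 9.05 and 8.40 in wild-type testes, and stayed near background on all 6 arrays.

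**Figure D2:**
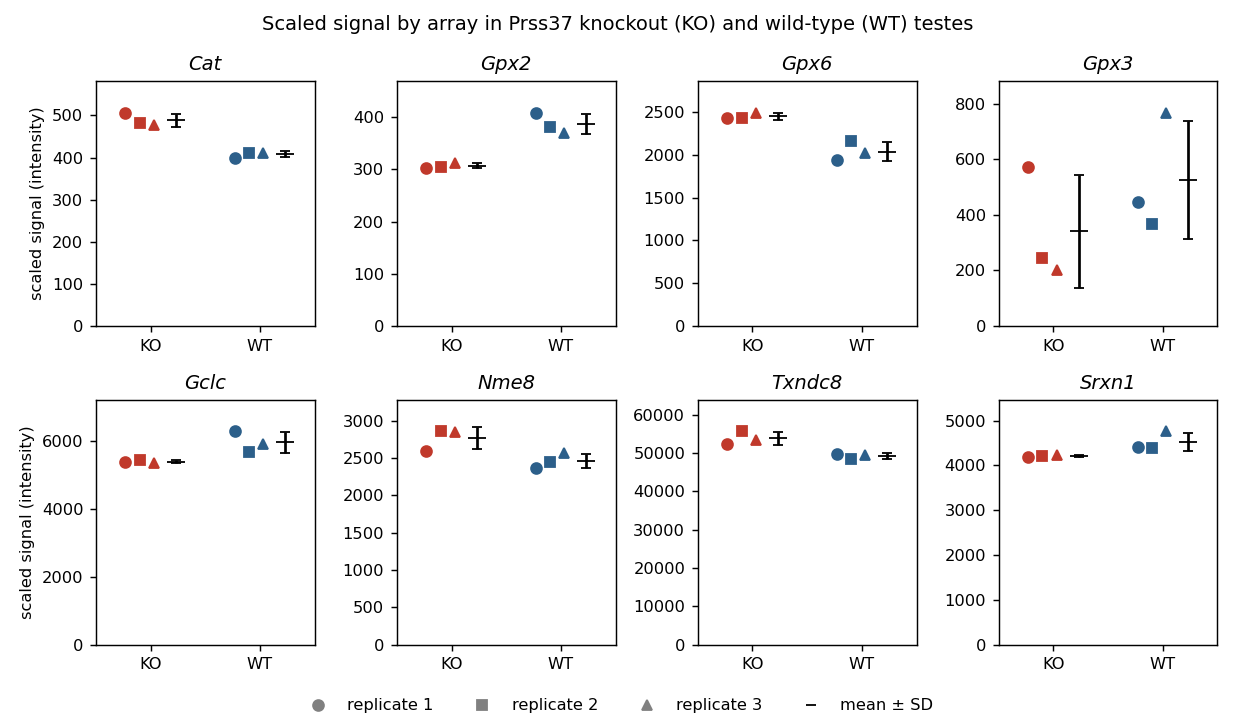
Scaled signal (intensity) on each array for 8 members, knockout left of wild type, with symbols for the replicate and bars for the mean ± SD (n = 3 each). The panels are the 6 members with an unadjusted p under 0.05, the widely spread Gpx3, and Srxn1. The genotypes separate in 7 of the 8 panels, whereas 10 of the 34 tested members and 31.6% of all genes separate, and among the 8 drawn Cat and Gpx2 passed the test across all genes.

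Among superoxide dismutases, Sod1 of the cytosol had scaled signals of 112900, 119300 and 116800 in knockout testes, against 108800, 111700 and 108800 in wild-type testes. The knockout arrays lay above the wild-type ones by 0.08 (limma adjusted p = 0.27). Sod2 of the mitochondria averaged 62783 ± 1336 in knockout and 61809 ± 1109.6 in wild-type testes, a difference of 0.02 with an interval of -0.07 to 0.12. The gene of the extracellular enzyme, Sod3, averaged 132 ± 5.42 in knockout and 146 ± 10.1 in wild-type testes, a difference of -0.14 with an interval of -0.30 to 0.02. The second tested Sod1 probe gave 0.14. None of the 3 passed the test.

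None of the 5 peroxiredoxins measured here was called. Prdx1 of the cytosol averaged 13118 ± 393 in knockout and 12472 ± 846 in wild-type testes, a difference of 0.07. Prdx3 of the mitochondria averaged 3749 ± 112 in knockout and 3657 ± 123 in wild-type testes, a difference of 0.04. Prdx4 of the secretory pathway averaged 32259.8 ± 1763 in knockout and 33186 ± 1537 in wild-type testes, a difference of -0.04. The 95% interval of each of these 3 included 0. Prdx5, found in several compartments, averaged 9600.0 ± 239.7 in knockout and 9710.1 ± 79.3 in wild-type testes, a difference of -0.02 with an interval of -0.11 to 0.08. Prdx6, the 1-cysteine enzyme that reduces phospholipid peroxides, was read by 3 tested probes that did not run the same way. The brightest Prdx6 probe had scaled signals of 25100, 25470 and 25360 in knockout testes, against 24090, 25080 and 24000 in wild-type testes, a difference of 0.05 without overlap. The probe nearer the start of the Prdx6 transcript had -0.02 and the dimmest tested one, designed on another transcript record, -0.09, and the genotypes overlapped on both.

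Srxn1, the sulfiredoxin that restores over-oxidised peroxiredoxins, was also read by 3 tested probes. The brightest had scaled signals of 4188, 4208 and 4240 in knockout testes, against 4422, 4379 and 4759 in wild-type testes. The genotypes did not overlap, with a difference of -0.10 (limma adjusted p = 0.25). A Srxn1 probe at 4031, 4157 and 4251 in knockout testes, against 4448, 4421 and 4818 in wild-type testes, had a difference of -0.14. These 2 probes overlap in the transcript and are not independent readings, as the last 30 bases of the brightest and the first 30 of the other show, with the 13 shared bases in capitals:
Srxn1 brightest probe: ctttatgatagcactatATGAACTATGTAC
Srxn1 overlapping probe: ATGAACTATGTACtaggaagtaaaggaaaa
The remaining Srxn1 probe, further along the transcript, had 1443, 1399 and 1398 in knockout testes, against 1331, 1331 and 1444 in wild-type testes. It overlapped between genotypes and its difference was 0.05, so the lower level held for the overlapping pair alone. The 2 overlapping probes lie at chr2:151935185-151935244 and chr2:151935232-151935291 on mm9.

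Of the general thioredoxins and their reductases, none passed the test. Txn1, the thioredoxin of the cytosol, averaged 3093 ± 164 in knockout and 3205 ± 173 in wild-type testes, with differences of 0.01 on slide 1 and -0.18 on slide 2. Txn2 of the mitochondria averaged 19642 ± 459.5 in knockout and 20404 ± 926 in wild-type testes, a difference of -0.05. Both overlapped between genotypes. Txnrd1, the cytosolic reductase, averaged 5646 ± 136 in knockout and 5973 ± 202 in wild-type testes, a difference of -0.08 with an interval of -0.19 to 0.03. The mitochondrial reductase gene Txnrd2 averaged 244 ± 12.2 in knockout and 223 ± 12.8 in wild-type testes, a difference of 0.12 with an interval of -0.03 to 0.28.

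Of the 3 spermatid thioredoxins none was called. All knockout arrays lay above all wild-type arrays in 2 of these 3 genes, whereas this held for 15.5% of all genes. Nme8 (Sptrx-2), a thioredoxin of the sperm tail, had scaled signals of 2600, 2858 and 2854 in knockout testes, against 2373, 2447 and 2564 in wild-type testes. All knockout arrays lay above all wild-type arrays, and the difference of 0.17 missed the threshold (limma adjusted p = 0.15). Txndc8 (Sptrx-3), linked to the acrosome, had 52380, 55610 and 53500 in knockout testes, against 49680, 48400 and 49590 in wild-type testes. These did not overlap either, with a difference of 0.13 (adjusted p = 0.14), which was 0.07 with normexp (0.57). Txnrd3, the thioredoxin and glutathione reductase of the testis, had 103600, 106000 and 108000 in knockout testes, against 103000, 106500 and 104000 in wild-type testes. Its difference of 0.02 had an interval of -0.08 to 0.11, and the arrays overlapped. The 8 spermatid markers, which share the cells of these genes, had a median difference of 0.09 with 7 above 0 and none called. In 3 of the 8 (37.5%) the knockout arrays lay above all wild-type arrays and in 0 below them. The summed level of these markers was 10.04 to 10.21 in knockout and 10.05 to 10.12 in wild-type testes.

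Txndc2 (Sptrx-1), the thioredoxin of the fibrous sheath, had 45280, 48090 and 48740 in knockout testes, against 43800, 45820 and 56120 in wild-type testes. Wild-type replicate 3 stood highest, and the difference of -0.03 was 0.06 on slide 1 and -0.20 on slide 2. The second Txndc2 probe gave -0.04. The brighter one, from a repeated stretch of the transcript, starts as below, with a 15-base unit in capitals that recurs at its bases 46 to 60:
Txndc2 brightest probe: AAGACATCATCCAATccaagaaagaggaca
A probe in a repeat can bind a transcript at several places, and the dimmer probe gave the same direction and nearly the same size.

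**Figure D3:**
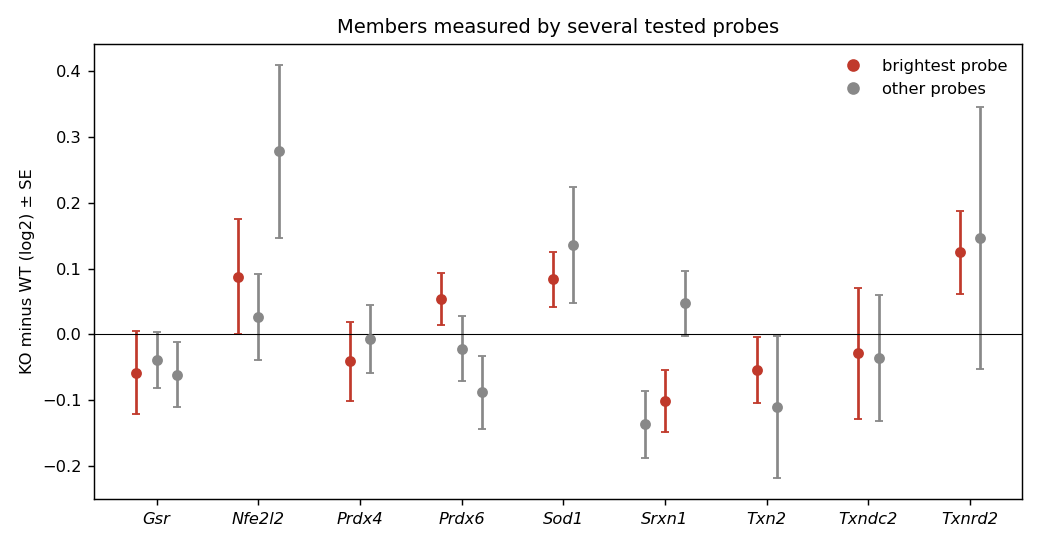
Log2 difference, knockout minus wild type, with its SE for each tested probe of the 9 members read by more than 1 (brightest probe in red). Prdx6 and Srxn1 have probes on both sides of 0, while the probes of the other 7 genes share a direction. The dimmest Nfe2l2 probe passed the filter through the knockout arrays alone.

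Of the glutathione genes, Gclc, the catalytic subunit of the rate-limiting enzyme of glutathione synthesis, had scaled signals of 5388, 5442 and 5358 in knockout testes, against 6283, 5677 and 5920 in wild-type testes. The genotypes did not overlap. The mean was 5396 ± 42.2 in knockout and 5960 ± 305 in wild type (SD, n = 3 each), a difference of -0.14 on both slides that missed the threshold (limma adjusted p = 0.16). Its regulatory partner Gclm averaged 589 ± 22.9 in knockout and 585 ± 45.2 in wild-type testes, a difference of 0.01 with an interval of -0.15 to 0.18. Gss, the second enzyme of synthesis, averaged 420.3 ± 16.7 in knockout and 437 ± 12.7 in wild-type testes, a difference of -0.06. Gsr, the reductase that recycles glutathione, averaged 2052 ± 39.9 in knockout and 2141 ± 157 in wild-type testes. Of the 3 Gsr probes the brightest gave -0.06. The dimmer ones, at -0.04 and -0.06, overlap in the transcript and are not independent readings. Gstm5, a glutathione transferase abundant in testis and brain, averaged 239949 ± 9857 in knockout and 225475 ± 15681 in wild-type testes, a difference of 0.09 with an interval of -0.07 to 0.25.

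Hmox2, the constitutive heme oxygenase, had 78860, 82480 and 80700 in knockout testes, against 71850, 69470 and 80030 in wild-type testes. The overlap came from wild-type replicate 3 alone, and the difference of 0.13 had an adjusted p of 0.27. The stress-inducible heme oxygenase gene Hmox1 averaged 1499.8 ± 53.2 in knockout and 1478 ± 60.5 in wild-type testes, a difference of 0.02 with an interval of -0.10 to 0.14. The quinone reductase gene Nqo1 averaged 106 ± 12.6 in knockout and 102 ± 10.05 in wild-type testes, a difference of 0.06 with an interval of -0.21 to 0.33. Both are textbook Nrf2 targets, and neither differed beyond its spread. Nfe2l2 itself averaged 2345 ± 122 in knockout and 2213 ± 244 in wild-type testes, a difference of 0.09, with 0.21 on slide 1 and -0.16 on slide 2, and its 3 probes gave 0.03 to 0.28. The repressor gene Keap1 had 13180, 13820 and 13510 in knockout testes, against 15290, 13570 and 14800 in wild-type testes, a difference of -0.11 (limma adjusted p = 0.31) in which knockout replicate 2 reached above wild-type replicate 2.

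**Figure D4:**
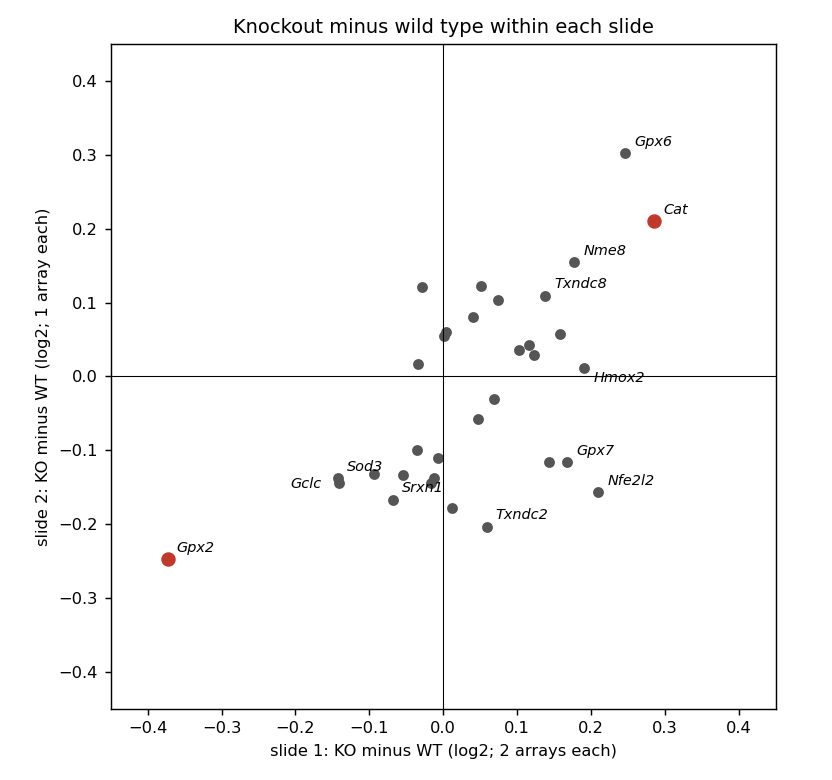
Log2 difference, knockout minus wild type, on slide 1 (2 arrays per genotype, x axis) against slide 2 (1 array per genotype, y axis) for 33 members, called genes in red. Gpx3, at -0.11 and -1.92, lies outside the axes. Cat, Gpx6, Nme8 and Txndc8 are above 0 and Gpx2, Gclc, Srxn1 and Sod3 below 0 on both slides, whereas Nfe2l2, Gpx7 and Txndc2 change sides.

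The sign of the difference was the same on both slides in 25 of the 34 members and opposite in 9. In members without overlap between genotypes the shared sign follows from that separation.

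Nrf2 acts with small Maf proteins on the antioxidant response element, whose core can be written TGACNNNGC. This core was sought on both strands of the RefSeq promoters (GRCm38.p6, 250 bases before to 50 after a transcript start), which matched 30 of the 35 members. It was present in 8 of the 30 (26.7%), and in 14.0% of all 27025 genes with a promoter in the table. A match is only a run of letters, and a gene with several starts has more places for it. Each match is shown with its flanks, in the direction of transcription, with the core in capitals, to set the members that carry it against their signal:
Prdx1: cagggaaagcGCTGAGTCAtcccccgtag
Txnrd1: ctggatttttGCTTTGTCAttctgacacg
Gclm: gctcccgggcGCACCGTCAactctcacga
Srxn1: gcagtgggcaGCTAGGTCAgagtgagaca
Gstm5: caccgcccacTGACCACGCggagggcggg
Sod1: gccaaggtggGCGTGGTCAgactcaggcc
Nfe2l2: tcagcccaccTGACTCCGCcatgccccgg
Txndc2: ctttgaacctTGACCTAGCctagctgtgt
The Prdx1 stretch lies at chr4:116685456-116685484, that of Txnrd1 at chr10:82859104-82859132, that of Gclm at chr3:122245413-122245441 and that of Srxn1 at chr2:152105542-152105570, all on the plus strand. Those of Gstm5 and Sod1 lie at chr3:107895802-107895830 and chr16:90220696-90220724 on the plus strand, and those of Nfe2l2 and Txndc2 at chr2:75704885-75704913 and chr17:65639941-65639969 on the minus strand. None of these 8 genes was called. Their differences ran from -0.10 in Srxn1 to 0.09 in Gstm5, with 5 above 0 and 3 below.

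The rest of the pathway was followed in 6 further lists. Of all genes tested, 1.25% were called lower and 1.21% higher. Of 20 methionine sulfoxide reductase and selenoprotein genes, 1 was called lower and none higher. That gene was Msrb2, which repairs oxidised methionine in mitochondria, with scaled signals of 2345, 2400 and 2401 in knockout testes, against 2736, 2824 and 2921 in wild-type testes. The genotypes did not overlap, and the difference was -0.25 (limma adjusted p = 0.047). Leaving out any single array took the adjusted p of Msrb2 past the threshold, to between 0.061 and 0.17, and blocking on slide gave 0.068. No gene was called in the 5 other lists, which are the 20 glutaredoxin and thioredoxin-like genes, the 25 tested genes of the glutathione transferase list, the 12 genes of NADPH supply, the 26 Nrf2 partners and other targets, and the 11 tested of 20 sources of reactive oxygen.

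The glutathione transferase list had the highest median of the related lists, 0.10, with 19 of 25 above 0. It holds enzymes that couple glutathione to electrophiles and also Ggt1 and Ggct, which take part in glutathione breakdown, and the peroxidase gene Gpx8, of which Ggct is among the 19 and among those without overlap. Hpgds, among the 19, passed the filter through the knockout arrays alone. In 9 of the 25 (36.0%) the knockout arrays lay above all wild-type arrays and in 1, Gstt3, below them, where 15.5% of all genes lay above and 16.0% below. Among the 26 Nrf2 partners and other targets 11 lay above (42.3%) and 3 below (11.5%). The median of these 26 was only 0.03. Of the 11, Cul3, Blvra, Park7, Abcc1 and Fth1 differed by less than 0.1 and the rest by more. Most of the 11, and 1 of the 3, did not reach an unadjusted limma p under 0.05. Gstm4 had scaled signals of 418.7, 388.8 and 370.1 in knockout testes, against 299.8, 296.4 and 337.4 in wild-type testes, a difference of 0.34 (limma adjusted p = 0.069). Gstt2 had a difference of 0.16 (0.089). The medians of the other lists ran from -0.01 for sources of reactive oxygen to 0.03, and that of the selenoprotein list was 0.004.

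Txnip, the inhibitor of thioredoxin, had scaled signals of 3456, 4082 and 3691 in knockout testes, against 3316, 2447 and 2093 in wild-type testes. The genotypes did not overlap, but the wild-type arrays were spread widely, and the difference of 0.54 had a limma adjusted p of 0.14. Txndc12, an endoplasmic reticulum thioredoxin, had -0.13 (0.18). Among Nrf2 partners and targets, Sesn3, a stress-induced sestrin, had -0.19 (adjusted p = 0.064) and Nfe2, a blood-cell relative of Nrf2, 0.44 (0.067). In NADPH supply, Pgd of the pentose phosphate pathway had -0.11 (0.24) and the mitochondrial transhydrogenase gene Nnt -0.13 (0.24). Among the sources of reactive oxygen, the phagocyte oxidase gene Ncf4 had -0.24 (0.27).

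**Figure D5:**
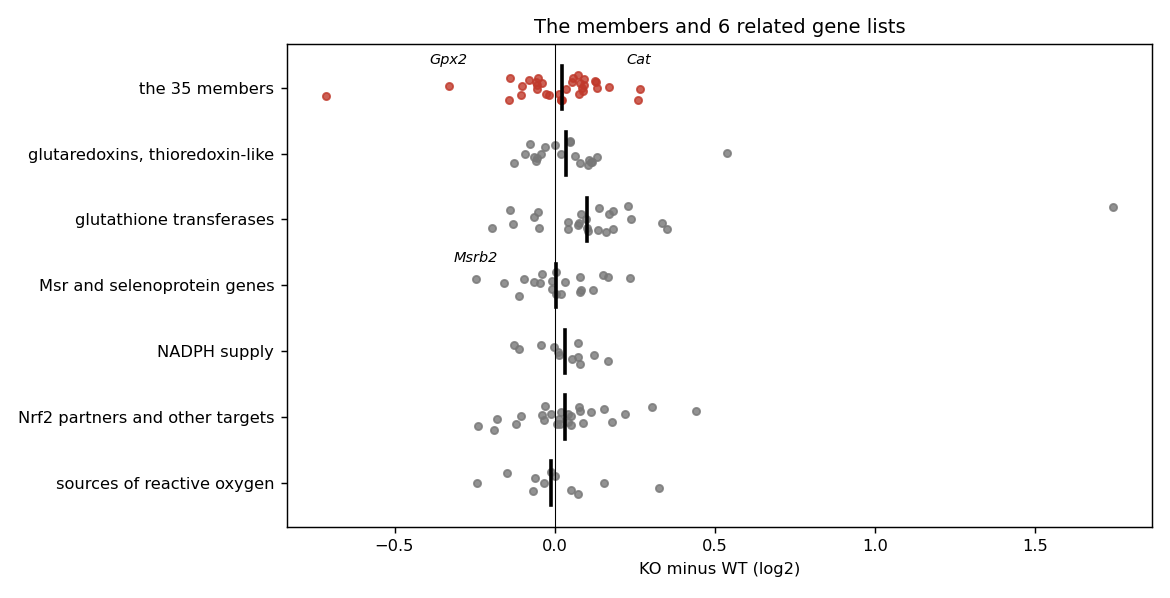
Log2 difference, knockout minus wild type, of each tested gene in the member list and 6 related lists, with the list median as a bar and called genes named. The median of the glutathione transferase list lies at 0.10 and the others between -0.01 and 0.03. The point at 1.74 is Hpgds, named after its value was seen, which was well above background on 3 knockout and 0 wild-type arrays. The wild-type level of Hpgds was thus not measured above background, so its place on the axis is not a measured size. Its signals also overlapped between genotypes.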

How the data were processed

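Total RNA had been amplified, labelled with Cy3 and hybridised to 1 array per mouse, per the labels' protocols. The deposited intensity of each spot is the processed signal of Agilent Feature Extraction, version 10.7.3.1 in the headers and 10.7 in the submitters' processing notes. Spatial and multiplicative detrending were on and the global background correction was off, per the file headers. A deposited table of log2 values, with equal sorted values in every column to within 0.0013, served as an alternative; how it was made is not given in the sources used here. Flag columns of the deposited files were used per the file headers.

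Control spots and flagged spots (86 to 159 per array) were left out. Signals were put on the log2 scale, centred on each array's 75th percentile and averaged over the spots of a probe. Probes were named by RefSeq accession (27660), symbol (5595) or synonym (470), and 7449 kept the file's name. Knockout minus wild type was fitted in limma 3.58.1 (R 4.3.3) on 18975 genes, from 28301 tested probes. The series' design gives n as mice. The number of arrays limits precision, and an exact permutation test of 3 against 3 cannot go below p = 0.1. Steps were checked on simulated data. The description of the knockout samples names Prss55, but their titles name Prss37, and the titles set the groups.

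The members, the lists and the tests were chosen with earlier results of these data known. Every member was named. Members called, with an unadjusted p under 0.05, or with probes in opposite directions got their value on every array, as did some others chosen after their values were seen. From each related list the called genes were named, or the 2 with the lowest p where none was called, with Hpgds added after its value was seen. A gene that this rule selects is not reported here. The alternatives were normexp (offset 50), quantile normalization, median centring, the deposited table, other filters and probe rules, flagged spots kept, array weights, a robust variance trend, a block for slide or for replicate number, slide 1 alone, an adjusted p under 0.1 and each array left out.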

Additional observations from a re-analysis of the deposited data

How the results depend on the processing

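With 1 member called higher (Cat) and 1 lower (Gpx2), the counts became 0 and 0 with normexp, with no filter on dim probes, with each probe on its own, in the fit blocked on slide and on slide 1 alone. They were 0 and 1 with median centring and when a gene's probes were averaged, and 2 and 1 with array weights, with a robust variance trend and at an adjusted p under 0.1, where Gpx6 was the addition. With 1 array left out the counts ranged over 0 to 1 for higher and 0 to 1 for lower calls, and without wild-type replicate 2 the gene called higher was Gpx6. Over all genes 230 were called higher and 237 lower. This became 2 and 6 without the filter, 30 and 49 blocked on slide, 6 and 21 on slide 1 alone, 691 and 579 with the variance trend, 644 and 529 with array weights, 125 and 150 with the mean of probes, 132 and 161 with each probe on its own, 959 and 908 at an adjusted p under 0.1, and 0 to 442 and 2 to 337 with an array left out. Slide 1 alone and each left-out array use fewer arrays by construction; otherwise the cause was not tested. Same-numbered knockout and wild-type arrays had deviations correlated at -0.03, -0.03 and 0.16 for replicates 1, 2 and 3. Both replicates 3 were on slide 2 and the others on slide 1, and the labels pair the numbers in no other way. With the replicate number as a block 0 members were called higher and 0 lower, and over all genes 0 and 2. The median of the members ran from 0.002 with the deposited table to 0.04 on slide 1 alone. In 24 of the 34 tested members the direction was the same in all 20 refits, and in 10 it turned in at least 1 of them: Gclm, Gstm5, Hmox1, Nqo1, Prdx5, Prdx6, Sod2, Txn1, Txndc2 and Txnrd3, none of which was called. Many of these refits could not turn a sign. The variance trend and the blocks alter the error and not the difference. Other filters and each probe on its own reuse the value of the same probe. Where the genotypes do not overlap, leaving out 1 array cannot turn the sign either. Of the related genes, Msrb2 missed the threshold with normexp (adjusted p = 0.10) and with median centring (0.057). Gpx5 was too dim to measure.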
